A study of Mus musculus with 6 samples.

Results

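In cultures of mouse digit progenitors, a small set of cells carried most of the transcripts of *Prg4*, the gene of lubricin, and these cells are described here at Day 10 of culture. They were chosen by a count. A cell barcode was kept when it held at least 3000 unique molecular identifiers (UMIs, each one captured RNA molecule), at most 7500 detected genes and at most 25% of its UMIs on mitochondrial genes, and it was called Prg4-high when it held 5 or more *Prg4* UMIs. This gave 398 of 8350 cells in Day 10 replicate A and 363 of 8357 in replicate B, 761 of 16707 in all. They were compared with the cells of the same library that held no *Prg4* UMI, 7247 in replicate A and 7393 in replicate B, called Prg4-zero here. The 705 and 601 cells with 1 to 4 *Prg4* UMIs were in neither class.

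Lubricin is a large secreted glycoprotein that coats the joint surface and lets opposing cartilages slide with little friction. It is made by the superficial cells of articular cartilage and by the lining cells of the synovium. In the embryo, joints arise from an interzone of flattened cells, marked by *Gdf5*, that forms across a condensing cartilage, and the cells at the margins of the interzone and in the tissue around it give rise to articular cartilage, synovium and ligament.

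The cultures, called Digits in a Dish (DID), were grown from the distal-most part of the forelimb buds of wild-type CD-1 mouse embryos at E11.5. Limb buds were pooled, dissociated and seeded in dishes, with no transgene, mutation or added treatment that differed between groups. Cells of 6 libraries were sequenced by droplet 3′ single-cell RNA sequencing, with 2 independent cultures (replicates A and B) for each of the days 2, 7 and 10. All 54126 cells of the series that passed the limits above included 1196 with 5 or more *Prg4* UMIs.

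The kept cells of a library held between 166797398 and 253858740 UMIs. The Prg4-high cells were deeper than the others, with a median of 39979 UMIs and 5960 genes in Day 10 replicate A against 28042 UMIs and 5016 genes in Prg4-zero cells, and 38201 UMIs and 5784 genes against 26980 UMIs and 4876 genes in replicate B. A count threshold selects deep cells, and so each main result was also computed within cells of 10000 to 40000 UMIs. The share of cells with a UMI of a gene depends on depth too. Such shares compare classes of unlike depth unless given at equal depth. Mitochondrial genes took a median of 3.34% and 2.94% of the UMIs of Prg4-high cells in replicates A and B, against 3.66% and 3.15% in Prg4-zero cells. The Day 10 libraries shared 19 barcodes, with no Prg4-high cell on both sides, and no doublets were removed.

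Prg4-high cells were rare at Day 2 and more frequent at each later day. At Day 2 they made up 0.19% (95% exact binomial interval 0.111 to 0.304) of the cells of replicate A and 0.185% (0.11 to 0.292) of replicate B. Their share at Day 7 was 2.48% (2.17 to 2.82) in A and 1.79% (1.53 to 2.08) in B. By Day 10 it had reached 4.77% (4.32 to 5.25) and 4.34% (3.92 to 4.8). These intervals cover counting error only. The replicates of the 3 days did not overlap, but 2 libraries against 2 cannot give a two-sided exact permutation p below 0.333, and the shares are given without a test. After every cell was thinned to 3000 UMIs, the share of cells with a *Prg4* UMI kept the same order of days, with 0.302% and 0.513% for Day 2, 2.78% and 2.19% for Day 7, and 4.83% and 4.39% for Day 10.

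*Prg4* (ENSMUSG00000006014, chr1:150449412-150466165, minus strand, GRCm38) was concentrated in few cells. Values are given as CPM, the UMIs of a gene per 1000000 UMIs of a cell or of the summed cells of a class. The Prg4-high cells held 92.7% and 93.7% of all *Prg4* UMIs in Day 10 replicates A and B. Their median was 15 and 16 *Prg4* UMIs, the maximum 350 and 460, and 83 and 80 cells had 50 or more. Per cell, *Prg4* reached a median of 429 CPM in replicate A, with 10% of the cells under 134 CPM and 10% above 2220 CPM. Replicate B gave a median of 471 CPM, with the same limits at 160 and 2580 CPM. The level therefore ran over more than a factor of 10 among the members with no gap at the threshold. Just inside it, the 26 and 16 cells with exactly 5 UMIs had a median of 132 and 127 CPM, and just outside it the 51 and 30 cells with 4 UMIs had 121 and 109 CPM. Because *Prg4* chose the cells, none of these values was tested.

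**Figure D1:**
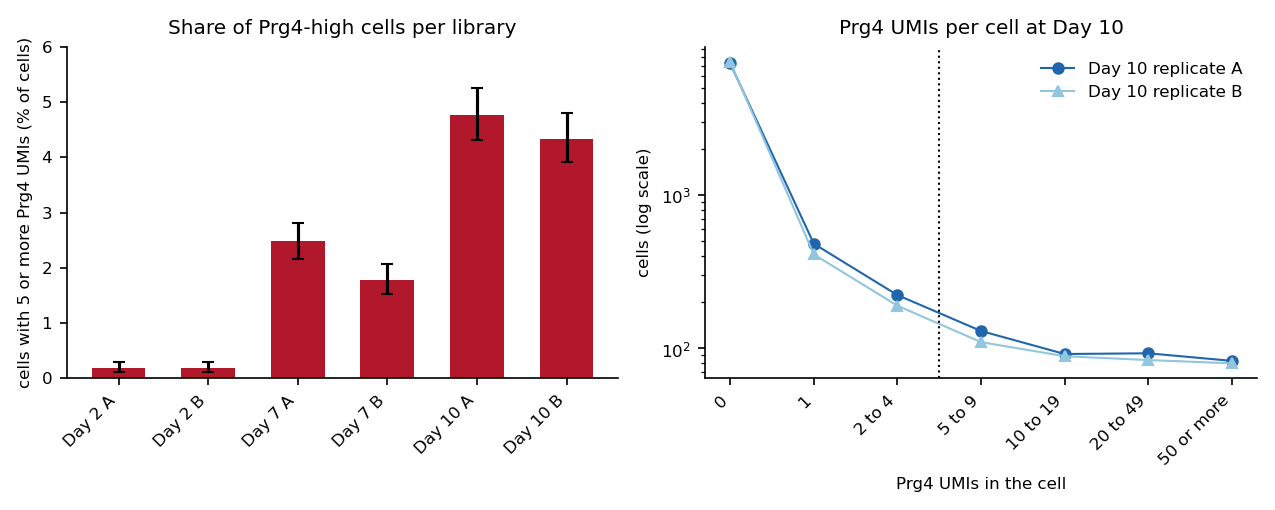
Left, the percent of kept cells with 5 or more *Prg4* UMIs in each of the 6 libraries, with 95% exact binomial intervals. Right, the number of Day 10 cells (log scale) by their *Prg4* UMIs in replicates A and B, with the threshold as a dotted line; the share is highest at Day 10, at 4.77% and 4.34%, and the numbers fall from 7247 and 7393 cells at 0 UMIs to 83 and 80 cells at 50 or more.

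Free RNA in droplets can place a *Prg4* UMI in a cell that does not make it. Macrophages were used as a measure of this, on the assumption, not tested here, that those of the cultures make no lubricin. Among cells with 5 or more UMIs of *Tyrobp*, a myeloid signalling adaptor, 7 of 126 in Day 10 replicate A (5.56%, interval 2.26 to 11.1) and 7 of 171 in replicate B (4.09%, 1.66 to 8.25) held a *Prg4* UMI, at a median depth of 21025.5 and 22173 UMIs. Of all kept cells, 13.2% and 11.5% held one, and at equal depth of 3000 UMIs 1.59% and 1.75% of these macrophages did against 4.83% and 4.39% of all cells. At 5 or more UMIs the macrophage counts were 0 and 3 cells.

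The name articular-like was checked against the genes of cartilage and of the joint, and the data went against a cartilage identity. All 21 genes of a chondrocyte list were lower in the Prg4-high cells than in the Prg4-zero cells, with a median log2 fold change of -3.2 against -0.04 over all 17327 genes tested. *Col2a1*, the collagen of cartilage, was at 427.8 and 782.3 CPM in the Prg4-high cells of replicates A and B and at 6105 and 5756 CPM in the Prg4-zero cells. *Acan*, which codes for aggrecan, was at 60.41 and 99.69 CPM against 797.2 and 715.9 CPM, and *Sox9*, the chondrogenic transcription factor, at 61.25 and 57.25 CPM against 202.7 and 189.0 CPM. Per cell the median *Col2a1* was 179 and 160 CPM against 637 and 719 CPM, and 383 (96.2%) and 337 (92.8%) of the Prg4-high cells had 1000 CPM or less. Above 5000 CPM, where 31.5% and 30.1% of the Prg4-zero cells lay, there were 5 (1.26%) and 17 (4.68%) Prg4-high cells, and a single cell held 24.4% and 9.35% of the *Col2a1* UMIs of the members.

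Genes known from joints went both ways. On a list of 30 articular and joint-surface genes, of which 28 could be tested after leaving out *Prg4* and 1 gene with too few counts, 11 were higher and 12 lower, with a median log2 fold change of -0.03. For comparison, 33.3% of all 17327 genes were called at an adjusted p under 0.05, 16.7% higher and 16.7% lower. Within cells of 10000 to 40000 UMIs 7 were higher and 11 lower, where 10.5% of all genes were higher and 13% lower. Among cells with *Col2a1* at 1000 CPM or less, a limit on both classes that is described further on, 6 were higher and 12 lower, with a median of -0.23, where 9.66% of all genes were higher and 12.4% lower. *Adcyap1*, which codes for the neuropeptide PACAP and was named with these cells from earlier results on the same data, was at 12.5 and 18.48 CPM in Prg4-high and 3.795 and 4.319 CPM in Prg4-zero cells. Only a minority of the cells held it, 71 (17.8%, interval 14.2 to 22) and 105 (28.9%, 24.3 to 33.9) of the Prg4-high cells against 4.77% and 5.09% of the Prg4-zero cells. At equal depth of 3000 UMIs these shares were 2.51% and 5.79% against 1.17% and 1.37%. *Adcyap1r1*, its receptor, stayed below 1 CPM in both classes, at 0.8416 and 0.6923 CPM against 0.2352 and 0.1659 CPM, and its call was lost within cells of 10000 to 40000 UMIs (log2 fold change 1.25, edgeR adjusted p = 0.54) and without Day 10 replicate A (2.07, adjusted p = 0.074).

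*Gdf5* was low in both classes and lower in the Prg4-high cells, at 0.541 and 0.7615 CPM against 2.305 and 2.541 CPM. It was found in 7 (1.76%) and 9 (2.48%) of these cells. *Wnt4*, a WNT ligand of the interzone, was also lower (1.683 and 3.946 against 17.04 and 17.95 CPM), as was the hyaluronan synthase *Has2* (3.487 and 3.6 against 11.38 and 9.553 CPM). Among cells with *Col2a1* at 1000 CPM or less *Wnt4* was still lower, at 0.8713 and 1.818 against 3.154 and 4.221 CPM (log2 fold change -1.46), and so was *Has2* (-1.09). Of the 28 genes of the list, 12 were lower there and 6 higher. The other lower genes were *Col22a1* (-3.23), *Vit* (-2.96), *Osr2* (-2.95), *Nfatc2* (-1.96) and *Osr1* (-1.04). *Clu* (-0.92), *Cilp2* (-0.77), *Nfatc1* (-0.68), *Abi3bp* (-0.34) and *Foxc1* (-0.20) were lower there as well. Levels of *Col22a1*, *Vit*, *Osr2* and *Nfatc2* were low in both classes. *Gdf6*, *Wnt9a* and *Creb5* were not called there. On the higher side over all cells were *Erg*, a transcription factor of developing articular cartilage (21.4 and 21.11 against 13.34 and 12.23 CPM), *Dkk3*, a secreted protein of the dickkopf family (91.49 and 95.81 against 52.64 and 49.69 CPM), and *Wnt16* (22.66 and 25.96 against 15.92 and 16.27 CPM). *Ltbp2*, a microfibril-associated protein, was at 89.39 and 92.76 CPM against 51.78 and 53.45 CPM, and *Sfrp2*, a secreted WNT modulator, at 27.59 and 52.61 CPM against 21.38 and 24.38 CPM. The hyaluronan receptor gene *Cd44* was called higher (37.75 and 29.91 against 28.88 and 27.05 CPM), but not without replicate A (log2 fold change 0.16, edgeR adjusted p = 0.28), and its fold change was negative and not called within cells of 10000 to 40000 UMIs (-0.047, adjusted p = 0.84) and among cells with *Col2a1* at 1000 CPM or less (-0.16, adjusted p = 0.2). At that limit *Gdf5* (-0.55, edgeR adjusted p = 0.29) and *Wnt16* (0.16, adjusted p = 0.19) were not called either. *Sfrp2* was still called there (0.40, adjusted p = 0.03), but was higher in replicate B only, at 26.7 and 56.65 CPM against 29.07 and 32.99 CPM. With cartilage genes low, *Gdf5* below 1 CPM and *Adcyap1* in a minority, the cells are named here by their rule alone.

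The main comparison asked in which other genes the Prg4-high cells differed from the Prg4-zero cells that grew beside them. UMIs were summed per library and class, and edgeR's quasi-likelihood test compared the classes within libraries, with p-values adjusted after Benjamini and Hochberg and n = 2 libraries per day. At Day 10, 2891 of 17327 genes were higher and 2885 lower in Prg4-high cells at an adjusted p under 0.05. Within cells of 10000 to 40000 UMIs (192 and 201 members), the counts were 1697 higher and 2102 lower, and without Day 10 replicate A they were 1846 and 2046. With a Day 10 replicate left out, 1 Day 10 library remains for each class, which is then assumed to vary like the Day 7 libraries. Counts on gene lists are to be read against the shares of all genes called. Over all Day 10 cells these were 16.7% higher and 16.7% lower. Within cells of 10000 to 40000 UMIs they were 10.5% and 13%, and with *Col2a1* at 1000 CPM or less 9.66% and 12.4%.

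The 20 genes with the largest increases at 20 CPM or more were of several kinds. *Mmp3* (chr9:7445822-7455975), a matrix metalloproteinase also called stromelysin, led them, at 30.24 and 71.58 CPM in Prg4-high and 1.928 and 2.086 CPM in Prg4-zero cells (log2 fold change 4.58, SE 0.22, edgeR adjusted p = 5.8e-09). It came from few cells, since only 8.54% and 11.6% of the Prg4-high cells held a UMI, against 1.05% and 1.43% of the Prg4-zero cells, and 1 cell gave 26% and 37.2% of the UMIs. With the cell richest in *Mmp3* left out of each class and library, the levels were 22.4 and 45.1 CPM in Prg4-high and 1.28 and 1.86 CPM in Prg4-zero cells. *Thbs4* (chr13:92751590-92794818), a thrombospondin of tendon and muscle matrix, was at 107.8 and 59.74 CPM against 12.86 and 12.32 CPM, with a UMI in 45.2% and 32.2% of the Prg4-high cells against 11.7% and 8.71%.

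*Ly6a* (chr15:74994877-74998031), which codes for the surface protein Sca-1 of many mesenchymal progenitors, was at 270.5 and 295.5 CPM against 53.68 and 66.94 CPM (log2 fold change 2.25, SE 0.05, edgeR adjusted p = 5.8e-12). It was in most of the Prg4-high cells, 78.9% and 80.7% against 28.3% and 27.8%, and at equal depth in 38.7% and 42.4% against 7.84% and 9.18%. Its close relative *Ly6c1* moved the same way (20.26 and 24.85 against 4.981 and 5.694 CPM), but genes of this family and *Serpinb1a* (34.74 and 21.94 against 7.901 and 6.813 CPM), a serine protease inhibitor, have near copies that can share reads. *Krt19*, a keratin, was at 40.4 and 33.51 CPM against 6.504 and 6.69 CPM, and was in 33.7% and 30.3% of the Prg4-high cells. *Igfbp3* (chr11:7206086-7213923), a secreted binder of insulin-like growth factors, was at 355.8 and 313.9 CPM against 108.2 and 88.38 CPM. It was found in 81.2% and 82.6% of the Prg4-high cells against 52.3% and 43.2%.

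*Galnt13*, an enzyme that starts mucin-type O-glycans, was at 23.08 and 22.64 CPM against 4.576 and 3.869 CPM, and in 41.2% and 40.5% of the Prg4-high cells against 7.01% and 5.72%. Several other leading genes code for secreted proteins, among them *Angptl2* (135.0 and 143.8 against 47.89 and 47.05 CPM) and *Angptl4* (37.27 and 29.14 against 12.3 and 9.402 CPM) of the angiopoietin-like family. *Gldn*, *Sbspon* and *Wfdc1* belonged to this group as well, with log2 fold changes of 2.09, 1.66 and 1.63. *Cxcl5*, a chemokine, was at 46.41 and 23.88 CPM against 13.06 and 9.823 CPM. The remaining genes of the leading 20 were *Prkg2*, a cGMP-dependent kinase (93.17 and 93.04 against 31.68 and 31.18 CPM), *Anxa8*, an annexin (61.07 and 55.94 against 17.52 and 16.78 CPM), *Avpr1a*, a vasopressin receptor (20.5 and 21.18 against 5.888 and 5.452 CPM), and the homeobox genes *Meox2* (28.37 and 28.87 against 10.14 and 7.88 CPM), *Hoxa13* and *Hoxd13*. In each of the 20, both Prg4-high libraries lay above both Prg4-zero libraries, which the rule for naming them required.

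**Figure D2:**
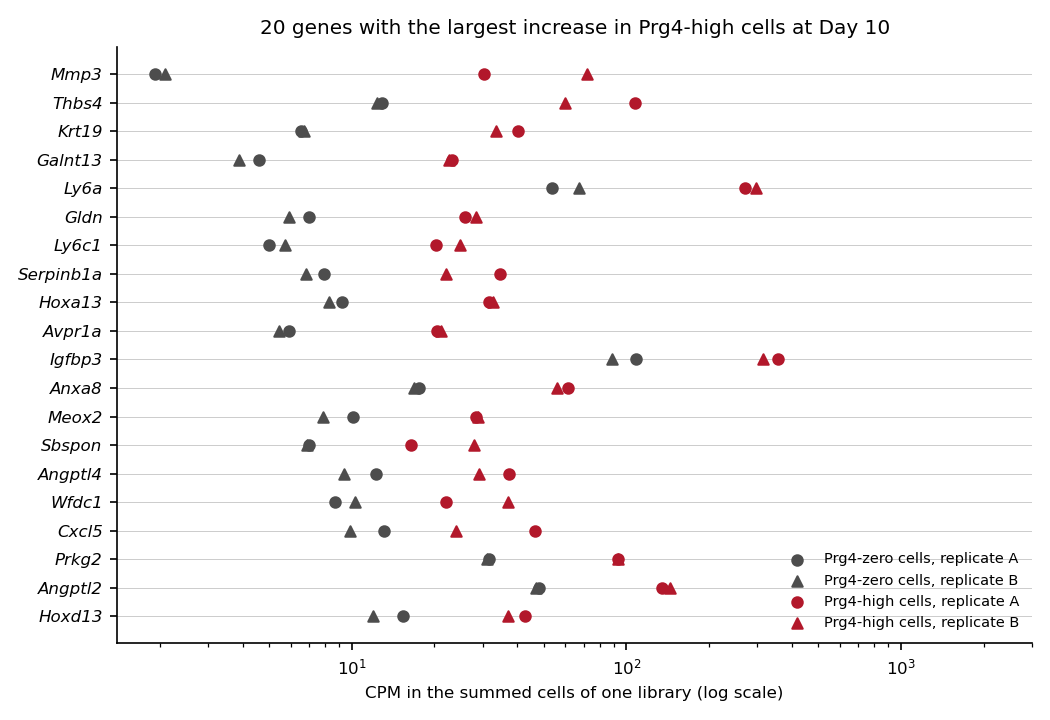
CPM (log scale) of 20 genes at Day 10, one point for each class and library, red for Prg4-high and grey for Prg4-zero. They have the largest log2 fold changes in Prg4-high cells among called genes that reach 20 CPM without overlap of the classes. The classes do not overlap for any gene, and the replicates of a class lie closest together for genes such as *Prkg2* (93.17 and 93.04 CPM) and farthest apart for *Mmp3* (30.24 and 71.58 CPM).

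Lower in the Prg4-high cells were above all genes of bone, of cartilage and of macrophages. *Ibsp* (chr5:104299171-104311469), a sialoprotein of mineralizing bone, showed the largest decrease, at 6.672 and 6.023 CPM against 574.5 and 852.1 CPM. None of the 398 and 363 Prg4-high cells held 20 or more *Ibsp* UMIs, where counting error allows up to 0.923% and 1.01%, while 3.77% and 4.86% of the Prg4-zero cells did. *Ifitm5*, a membrane protein of osteoblasts, was at 0.6011 and 0.7615 CPM against 21.83 and 33.86 CPM. The cartilage matrix genes *Matn1* (40.58 and 102.5 against 944.9 and 955.6 CPM), *Snorc* (35.71 and 97.47 against 730.1 and 802.0 CPM), *Col9a3* (58.31 and 125.6 against 1017 and 993.7 CPM) and *Hapln1* (52.78 and 74.7 against 744.3 and 651.7 CPM) followed. In each of these 4 the Prg4-high cells of replicate B were above those of replicate A, as was the share of cells above 5000 CPM of *Col2a1*. *Ucma*, *Mia*, *Cmtm5*, *Ncmap*, *Scin* and *Smpd3* were among the lowest 15 as well, with log2 fold changes between -4.27 and -3.46. In the cells with *Col2a1* at 1000 CPM or less the differences of *Matn1* (-0.42), *Snorc* (-0.51), *Hapln1* (-0.29) and *Col9a3* (-1.40) were smaller but still called. There *Smpd3* (-3.34), *Ucma* (-1.69) and *Mia* (-1.24) were still lower, while *Cmtm5* (-1.76, edgeR adjusted p = 0.055), *Ncmap* (-1, adjusted p = 0.05) and *Scin* (-0.59, adjusted p = 0.29) were not called. The lowest 15 also held *Lyz2*, a lysozyme of myeloid cells (1.022 and 2.977 against 72.7 and 81.19 CPM), the chemokine *Cxcl2* (0.8416 and 6.369 against 40.83 and 43.42 CPM), and *Tyrobp*, with 3 and 78 UMIs (0.1803 and 5.4 CPM) in the Prg4-high cells of replicates A and B against 27.59 and 38.11 CPM.

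Of 15 genes of hypertrophic cartilage and bone, 13 were lower and 1 higher, with a median log2 fold change of -2.05. Among cells with *Col2a1* at 1000 CPM or less 10 were lower and 1 higher, with a median of -0.93. *Ihh*, the hedgehog ligand of prehypertrophic cells, was at 1.743 and 4.707 CPM against 29.62 and 29.57 CPM, but was not called among cells with *Col2a1* at 1000 CPM or less (log2 fold change -0.70, edgeR adjusted p = 0.2). *Col10a1*, the hypertrophic collagen, was at 29.94 and 24.23 CPM against 132.7 and 94.63 CPM. With *Col2a1* at 1000 CPM or less it was at 30.68 and 25.75 against 53.51 and 56.51 CPM. The osteoblast factor *Sp7* was at 3.847 and 5.746 CPM against 21.83 and 23.16 CPM, and *Alpl*, the phosphatase of mineralizing cells, at 9.438 and 15.16 CPM against 93.09 and 104.7 CPM. The exception was *Spp1*, which codes for osteopontin, a protein of bone and of many other tissues. It was higher, at 2152 and 2523 CPM against 1350 and 1463 CPM, and was found in 93.2% and 90.4% of the Prg4-high cells and in 85.8% and 84.7% of the Prg4-zero cells.

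Genes that pattern the limb along its length moved both ways, with 11 of the 28 genes of the limb patterning list higher, 10 lower and 7 not called. The 13th HOX paralogs are the genes of the most distal segment, the autopod, while *Meis1*, *Meis2* and *Shox2* are known from proximal limb segments. *Hoxa13* (chr6:52257694-52260880) was at 31.56 and 32.81 CPM in Prg4-high and 9.223 and 8.283 CPM in Prg4-zero cells (log2 fold change 1.89, SE 0.09, edgeR adjusted p = 4.7e-09). *Hoxd13* was at 42.56 and 37.17 CPM against 15.38 and 11.91 CPM (log2 fold change 1.56, SE 0.07). *Shox2* (chr3:66971727-66981771) was at 5.951 and 8.446 CPM against 38.84 and 40.92 CPM (log2 fold change -2.47), *Meis2* (chr2:115863064-116065839) at 4.208 and 4.846 CPM against 17.74 and 20.73 CPM, and *Meis1* at 3.066 and 3.184 CPM against 7.389 and 7.24 CPM. Both Prg4-high libraries thus lay above both Prg4-zero libraries for the 13th paralogs and below them for these 3 proximal genes, which were picked from the list for their known positions.

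Within the *Hoxd* cluster the difference followed the order of the genes. From the distal end it was 1.56 for *Hoxd13*, 1.25 for *Hoxd12* (9.137 and 6.923 against 3.56 and 3.233 CPM), 0.64 for *Hoxd11* (76.76 and 72.13 against 49.4 and 46.8 CPM), 0.14 for *Hoxd10*, which did not pass the test (20.08 and 18.28 against 18.05 and 17.09 CPM), and -0.87 for *Hoxd9* (6.492 and 7.546 against 12.94 and 12.81 CPM), all as log2 fold changes. In the *Hoxa* cluster, *Hoxa13* was higher, while *Hoxa11* (17.07 and 19.31 against 23.7 and 23.32 CPM), *Hoxa10* (61.19 and 58.77 against 78.43 and 72.51 CPM) and *Hoxa9* (28.49 and 31.98 against 34.17 and 35.4 CPM) were lower, by log2 fold changes of -0.36, -0.32 and -0.19, which do not fall along the genes as in the *Hoxd* cluster. Without Day 10 replicate A, which leaves 1 Day 10 library, the log2 fold changes of *Hoxa11* and *Hoxa9* were smaller, at -0.25 and -0.13. *Hoxa9* was not called by DESeq2 (-0.17, DESeq2 adjusted p = 0.23) or at 10 or more *Prg4* UMIs (-0.16, edgeR adjusted p = 0.1). *Msx2*, a homeobox gene of distal limb mesenchyme, was at 18.51 and 24.16 CPM against 13.07 and 12.82 CPM.

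These differences were also seen in the share of cells with a UMI. *Hoxa13* was found in 63.8% and 62.5% of the Prg4-high cells and in 17.1% and 14.9% of the Prg4-zero cells, and at equal depth in 7.54% and 11.3% against 2.69% and 2.68%. *Hoxd13* was found in 73.4% and 64.5% against 26.2% and 21.1%, and at equal depth in 12.8% and 9.09% against 4.61% and 3.69%. For *Shox2* the order was the opposite, with 12.1% and 17.4% against 45.9% and 46.0%, and at equal depth 1.26% and 2.2% against 9.88% and 10.7%.

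Of 20 genes of perichondrium and fibrous matrix, 15 were higher and 3 lower, with a median log2 fold change of 0.26. Among cells with *Col2a1* at 1000 CPM or less, 8 were higher and 6 lower, with a median of 0.06, and *Col1a1* (0.01, edgeR adjusted p = 0.92) and *Thbs2* (0.18, adjusted p = 0.085) were not called. *Fbln2*, which codes for an extracellular fibulin, was at 497.7 and 485.3 CPM against 222.8 and 207.9 CPM, and its relative *Fbln1* at 60.83 and 60.64 CPM against 26.36 and 24.4 CPM. Smaller differences were found for *Fbn1*, the fibrillin of microfibrils (185.2 and 163.2 against 131.5 and 125.9 CPM), *Thbs2* (153.9 and 183.1 against 135.7 and 126.7 CPM) and *Col1a1*, the main collagen of fibrous tissue (3873 and 3572 against 3297 and 2896 CPM). *Fbn2* had a log2 fold change of 0.10 that did not pass the test (edgeR adjusted p = 0.051). It was called higher by DESeq2 (0.12, DESeq2 adjusted p = 0.049) and within cells of 10000 to 40000 UMIs (0.19, edgeR adjusted p = 0.0026). It was also called at 3 or more *Prg4* UMIs (0.10, edgeR adjusted p = 0.032) and with the Day 10 libraries alone (0.11, adjusted p = 0.047). Without Day 10 replicate B it was at 0.14, and with *Col2a1* at 1000 CPM or less at -0.10 and not called. *Postn*, periostin, and *Eln*, elastin, were lower, at 171.3 and 180.2 CPM against 369.7 and 319.8 CPM and at 29.76 and 37.66 CPM against 129.5 and 154.8 CPM.

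Genes used to mark synovial and connective tissue fibroblasts did not move together. Of 19 tested, 4 (21.1%) were higher and 7 (36.8%) lower, against 16.7% and 16.7% of all genes. Beside *Ly6a*, *Mfap5*, a microfibril protein, was higher at 63.18 and 40.64 CPM against 20.05 and 19.66 CPM. The small leucine-rich proteoglycans *Dcn* (29.27 and 36.07 against 72.65 and 75.11 CPM) and *Lum* (86.5 and 108.8 against 181.1 and 188.4 CPM) were lower, as were *Pdgfra*, a growth factor receptor of fibroblasts (24.53 and 23.12 against 32.17 and 30.44 CPM), and *Cd34* (0.7815 and 0.4846 against 4.929 and 6.528 CPM). Lining and surface markers of the synovium showed little. *Pdpn* was called higher at 12.5 and 12.25 CPM against 9.66 and 9.876 CPM, but not without either Day 10 replicate, where the log2 fold change stayed at 0.33 without A and 0.38 without B (edgeR adjusted p = 0.14 and 0.056, with 1 Day 10 library left and the spread taken from Day 7). *Cd55* (10.4 and 12.88 against 10.61 and 11.17 CPM) and *Thy1* (58.61 and 40.57 against 47.15 and 45.35 CPM) did not pass the test, *Thy1* with a log2 fold change of -0.14 without replicate A (edgeR adjusted p = 0.33), and 0.32 without replicate B (adjusted p = 0.001), each from 1 Day 10 library with the spread of Day 7, so that its sign rested on the replicate. Among cells with *Col2a1* at 1000 CPM or less, 2 genes of this list were higher and 10 lower, with a median log2 fold change of -0.52 against -0.01 over all genes, *Thy1* was lower (-0.39, adjusted p = 0.0013) and *Pdpn* was not called (0.03, adjusted p = 0.85).

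Of 10 tendon genes, 4 (40%) were higher and 4 (40%) lower, against 16.7% and 16.7% of all genes. *Scx* (chr15:76457452-76459458), the transcription factor of tendon progenitors, was at 112.2 and 120.4 CPM against 57.84 and 52.82 CPM, with a UMI in 85.4% and 86.5% of the Prg4-high cells against 45.4% and 41.4%. *Mkx*, a second tendon regulator, was at 9.378 and 9.761 CPM against 6.81 and 7.007 CPM, and *Col12a1*, a fibril-associated collagen, at 696.2 and 683.3 CPM against 424.8 and 393.8 CPM. *Tnmd*, tenomodulin, a marker of differentiated tendon cells, was lower, at 10.34 and 5.192 CPM against 29.24 and 25.98 CPM, and 13 (3.27%) and 8 (2.2%) of the Prg4-high cells held 3 or more *Tnmd* UMIs against 8.11% and 6.99%.

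Of 12 contractile genes 6 (50%) were higher and 3 (25%) lower, against 16.7% and 16.7% of all genes. Within cells of 10000 to 40000 UMIs 4 (33.3%) were higher and 5 (41.7%) lower, against 10.5% and 13%. *Cnn1*, calponin of smooth muscle and myofibroblasts, was at 194.1 and 168.8 CPM against 120.7 and 110.2 CPM. Of the Prg4-high cells, 90 (22.6%) and 79 (21.8%) held 10 or more *Cnn1* UMIs against 8.98% and 8.31%. Deep cells reach this count more easily, and these members had a median of 51311 and 50472 UMIs. Among cells with *Col2a1* at 1000 CPM or less, *Cnn1* was at 199.4 and 171.3 against 180.3 and 164.6 CPM (log2 fold change 0.13, edgeR adjusted p = 0.033). *Acta2* (2514 and 2418 against 2370 and 2271 CPM) and *Tagln* (1893 and 1838 against 1706 and 1715 CPM) differed by log2 fold changes of 0.10 and 0.14. Without Day 10 replicate A neither passed the test, at 0.11 and 0.12 (edgeR adjusted p = 0.076 and 0.052), and *Acta2* did not without replicate B either, at 0.09 (adjusted p = 0.064). *Actg2*, the enteric smooth muscle actin, was lower at 47.13 and 22.84 CPM against 135.9 and 152.4 CPM.

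Of 20 proteases and inhibitors, 10 (50%) were higher and 6 (30%) lower, against 16.7% and 16.7% of all genes. With *Col2a1* at 1000 CPM or less 6 (30%) were higher and 6 (30%) lower, against 9.66% and 12.4%. The median log2 fold change there was -0.11. *Mmp23*, a membrane-anchored metalloproteinase, was at 159.5 and 156.9 CPM against 85.05 and 85.74 CPM, and *Adamts1*, a proteoglycan-cleaving protease, at 72.86 and 64.66 CPM against 41.46 and 40.5 CPM. The inhibitor *Timp1* was at 736.8 and 658.8 CPM against 509.1 and 541.8 CPM. In each of these 3 genes the classes did not overlap over all cells. Among cells with *Col2a1* at 1000 CPM or less, *Timp1* was at 748.1 and 649 CPM against 642.1 and 685.7 CPM and did not pass the test (log2 fold change 0.10, edgeR adjusted p = 0.19). The 6 genes lower there were *Mmp9* (-1.885), *Serpine2* (-1.11), *Ctsk* (-0.72), *Adamts12* (-0.66), *Mmp16* (-0.45) and *Timp3* (-0.28).

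**Figure D3:**
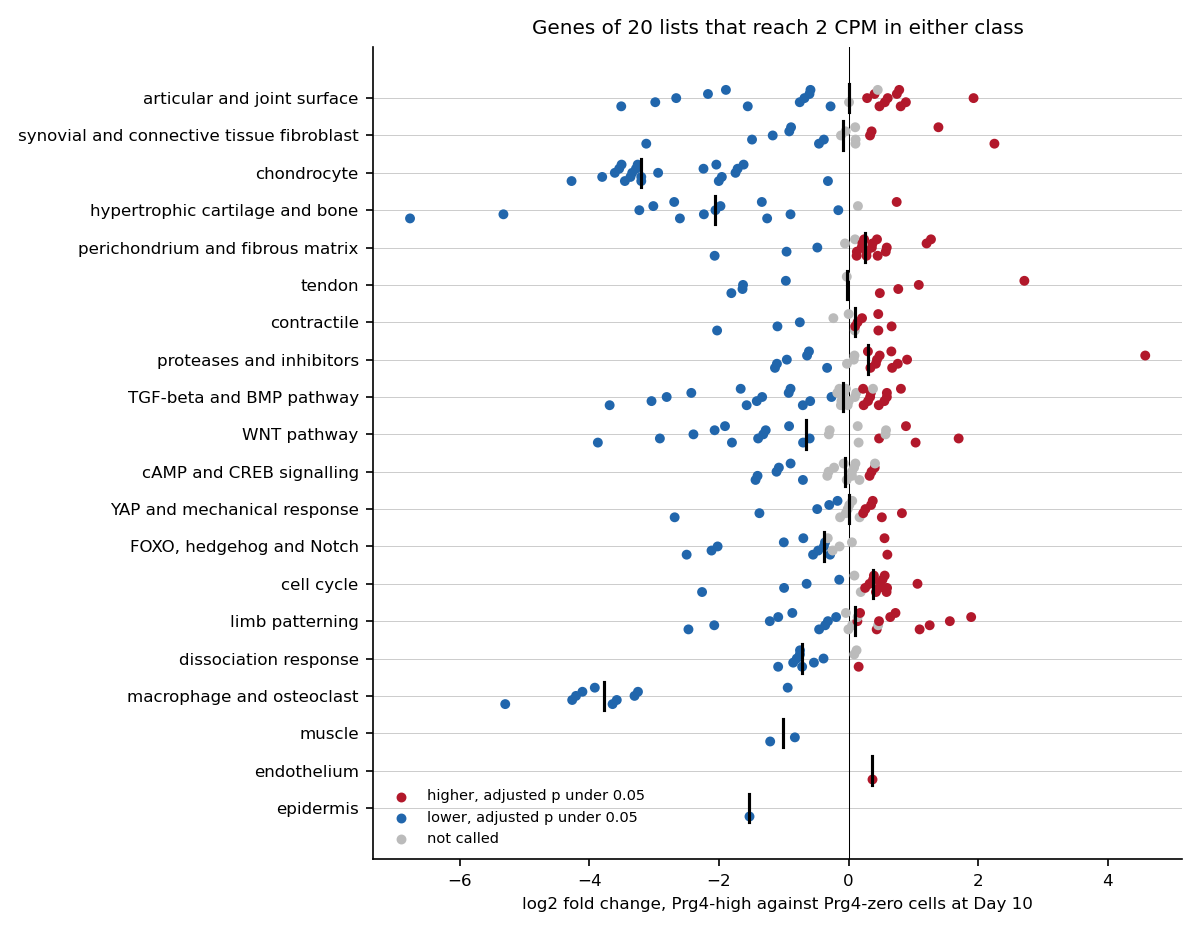
Log2 fold change of Prg4-high against Prg4-zero cells at Day 10 for the genes of 20 lists that reach 2 CPM in either class, one point a gene, red for called higher, blue for called lower and grey for not called, with the median of the genes drawn as a black bar. The chondrocyte and macrophage lists lie wholly below 0, the perichondrium list mostly above it, and most other lists spread on both sides.

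Among WNT pathway genes, 15 of 28 were lower and 4 higher, with a median log2 fold change of -0.90. The secreted inhibitors *Frzb* (9.017 and 13.71 against 61.46 and 57.56 CPM, and 7.655 and 8.634 against 14.29 and 14.65 CPM in cells with *Col2a1* at 1000 CPM or less) and *Wif1* (2.104 and 5.954 against 15.3 and 17.63 CPM) were lower, as was *Dkk1* (1.503 and 1.108 against 2.507 and 4.139 CPM), whose call was lost without replicate B (log2 fold change -0.73, edgeR adjusted p = 0.074). *Rspo3*, a secreted enhancer of WNT signalling, was higher at 334.8 and 403.5 CPM against 201.7 and 199.8 CPM, and its receptor gene *Lgr4* at 31.08 and 36.69 CPM against 25.13 and 24.03 CPM. *Dkk2* was higher as well, at 17.19 and 25.89 CPM against 10.07 and 10.87 CPM. Among cells with *Col2a1* at 1000 CPM or less, 4 (14.8%) of 27 tested were higher and 16 (59.3%) lower, against 9.66% and 12.4% of all genes. The median log2 fold change of the list there was -0.81.

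Hedgehog targets were low. *Ptch1*, the hedgehog receptor and a direct target, was at 20.32 and 25.68 CPM against 85.01 and 103.0 CPM, *Gli1*, the transcription factor induced by the pathway, at 1.202 and 1.523 CPM against 5.188 and 6.747 CPM, and *Hhip*, an inhibitor induced by it, at 2.104 and 2.977 CPM against 13.64 and 15.1 CPM. *Gli3*, the repressor of the pathway, was higher at 47.85 and 45.14 CPM against 32.87 and 29.09 CPM. So was *Foxo1*, a factor studied in articular cartilage, at 32.52 and 33.09 CPM against 22.83 and 22.21 CPM. These were the 2 genes (9.52%) called higher on the list of 21 FOXO, hedgehog and Notch genes, on which 10 (47.6%) were lower. Of all genes 16.7% were higher and 16.7% lower. Among cells with *Col2a1* at 1000 CPM or less, 2 (10%) of 20 tested were higher and 10 (50%) lower, against 9.66% and 12.4% of all genes.

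The TGF-beta and BMP list was divided, with 10 of 36 genes (27.8%) higher and 13 (36.1%) lower, against 16.7% and 16.7% of all genes. The ligand *Bmp4* was at 74.24 and 69.37 CPM against 46.36 and 50.04 CPM, and the BMP inhibitor *Nog*, noggin, at 14.37 and 18.97 CPM against 42.57 and 41.56 CPM. Of 18 genes of YAP and the mechanical response, 6 were higher and 5 lower, and among cells with *Col2a1* at 1000 CPM or less 1 was higher and 4 lower (5.56% higher and 22.2% lower, against 9.66% and 12.4% of all genes). *Ccn5*, a secreted matricellular protein, was at 194.0 and 186.3 CPM against 112.2 and 104.8 CPM, and *Ankrd1*, a target of YAP, at 3.547 and 4.361 CPM against 22.87 and 28.43 CPM.

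On the list of 26 genes of cAMP and CREB signalling, which receptors for PACAP engage, 4 were higher, 6 lower and 16 not called. Over all cells the shares, 15.4% higher and 23.1% lower, were near those of all genes, 16.7% and 16.7%. Within cells of 10000 to 40000 UMIs they were 16% and 28% of 25 tested, against 10.5% and 13%. With *Col2a1* at 1000 CPM or less they were 4% and 32%, against 9.66% and 12.4%. *Nr4a1*, an early response gene with CREB sites, was lower at 28.31 and 34.68 CPM against 65.4 and 71.49 CPM. Early response genes are also induced by the enzymatic dissociation of tissue, and of 12 genes listed for that, 8 were lower and 1 higher in Prg4-high cells. Among these, *Fos* was at 191.1 and 213.2 CPM against 329.2 and 340.1 CPM and *Fosb* at 69.43 and 61.4 CPM against 121.5 and 108.2 CPM. The part of dissociation in these differences was not tested.

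Calls on cell cycle genes differed between all cells and cells of 10000 to 40000 UMIs. Of 18, 12 (66.7%) were higher and 4 (22.2%) lower over all cells, against 16.7% and 16.7% of all genes. The narrower range of depth kept only 192 and 201 of the members, and the part of depth was not tested. Within that range 2 genes were higher and 5 lower, with a median log2 fold change of the list of -0.01. The share of higher genes there was 11.1%, against 10.5% of all genes, and that of lower genes 27.8%, against 13%. With *Col2a1* at 1000 CPM or less, 6 (33.3%) were higher and 4 (22.2%) lower, against 9.66% and 12.4% of all genes, with a median of 0.11. *Rrm2*, a subunit of ribonucleotide reductase, was at 86.26 and 75.25 CPM against 40.08 and 37.86 CPM. *Mki67*, the Ki-67 antigen of cycling cells, was at 57.23 and 50.33 CPM against 44.67 and 51.05 CPM and did not pass the test (edgeR adjusted p = 0.10). Its log2 fold change was 0.36 without Day 10 replicate B and -0.0018 without replicate A. It was called higher with no count filter (0.144, edgeR adjusted p = 0.032), at 3 or more *Prg4* UMIs (0.237, adjusted p = 0.01) and with the Day 10 libraries alone (0.195, adjusted p = 0.027). With *Col2a1* at 1000 CPM or less it was at -0.0143 and not called. *Cdkn1c*, a cell cycle inhibitor of postmitotic chondrocytes and other cells, was lower at 182.9 and 244.2 CPM against 997 and 1050 CPM, and at 161.6 and 139.3 CPM against 276.4 and 278.3 CPM in cells with *Col2a1* at 1000 CPM or less. *Ccnd1*, cyclin D1, was at 102.1 and 109.4 CPM against 196.1 and 230.5 CPM.

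Markers of cell types outside the skeletal lineages differed from list to list. All 10 macrophage and osteoclast genes were lower, with summed levels of 16.59 and 43.96 CPM against 220.3 and 271 CPM, the 3 cells of replicate B that passed both thresholds included. Of 8 muscle genes 5 (62.5%, against 16.7% of all genes) were lower, with sums of 4.208 and 6.023 CPM against 8.654 and 16.58 CPM. The epidermal list, with 1 of 7 genes lower (14.3%, near the share of all genes), summed to 3.066 and 2.977 CPM against 5.39 and 5.22 CPM. Endothelial genes, of which 5 of 7 could be tested, with 1 higher and 1 lower, summed to 23.14 and 24.58 CPM against 18.93 and 20.13 CPM. This sum was nearly all *Egfl7* (22.24 and 24.16 against 17.95 and 18.42 CPM), whereas the endothelial receptor gene *Kdr* had 0 UMIs in the Prg4-high cells of both replicates and *Pecam1* 5 and 4 UMIs. With *Col2a1* at 1000 CPM or less, 0 endothelial genes were higher and 2 lower, and *Egfl7* was not called (0.16, edgeR adjusted p = 0.13).

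To see whether the genes above changed with the amount of *Prg4*, Day 10 cells were placed in bins of 0, 1, 2 to 4, 5 to 9, 10 to 19, 20 to 49 and 50 or more *Prg4* UMIs. Depth rose along the bins, with a median of 28042 UMIs in the first and 43847 in the last of replicate A and of 26980 and 41951 in replicate B, and its part was not tested. In replicate A, *Hoxa13* went from 9.22 CPM at 0 UMIs to 14.7 at 1 UMI, 23.7 at 2 to 4 and 34.7 at 5 to 9, and was at 37.4, 27.7 and 26.1 CPM in the last 3 bins. In replicate B the *Hoxa13* levels were 8.28, 14.2, 29.2, 31.3, 35.2, 36.4 and 28.8 CPM. Most of the increase thus lay below the threshold of 5 UMIs, and cells with 50 or more *Prg4* UMIs had no more *Hoxa13* than cells with 5 to 9.

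*Shox2* ran the other way, from 38.8 CPM at 0 UMIs to 18.9 at 2 to 4, 8.34 at 5 to 9 and 2.87 at 50 or more in replicate A, and from 40.9 to 14.5, 10.4 and 6.37 CPM in replicate B. *Thbs4* increased further among the members, from 46.0 CPM at 5 to 9 UMIs to 163 CPM at 50 or more in replicate A and from 33.8 to 133 CPM in replicate B. *Adcyap1* increased up to the members and had no single order among them. In replicate A it was at 3.8, 6.67, 10.9, 15.3, 9.35, 15.8 and 8.08 CPM along the 7 bins, and in replicate B at 4.32, 7.31, 21.0, 17.5, 26.8, 20.2 and 10.2 CPM. Within the members the bin of 50 or more *Prg4* UMIs was the lowest in both replicates. These orders are a description along the value that chose the cells.

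**Figure D4:**
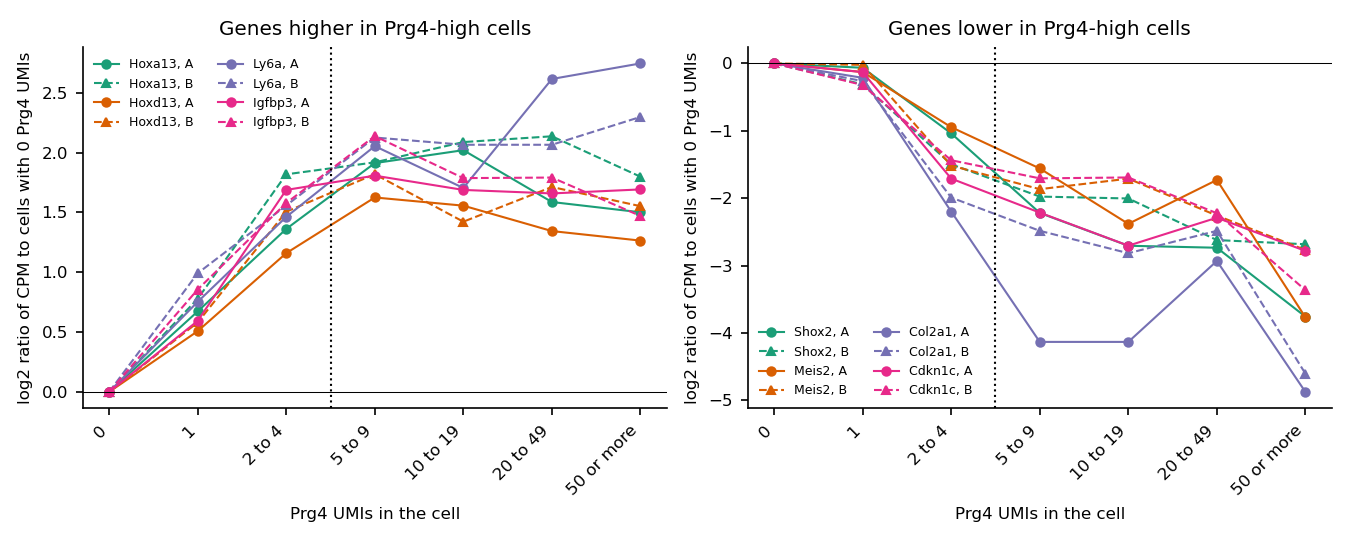
Log2 ratio of a gene's CPM in each bin of *Prg4* UMIs to its CPM in cells with 0 *Prg4* UMIs at Day 10, for 4 genes that were higher (left) and 4 that were lower (right) in Prg4-high cells, replicate A solid and replicate B dashed. *Hoxa13* climbs up to the bin of 5 to 9 UMIs (34.7 and 31.3 CPM) and reaches at most 37.4 and 36.4 CPM in later bins, while *Shox2* keeps falling to 2.87 and 6.37 CPM.

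The 10 genes looked at in the other direction, 9 of the leading 20 and *Adcyap1*, did not mark the Prg4-high cells alone. As these 9 lead the same contrast, a raised share of Prg4-high cells is that contrast turned round and no separate evidence. Both thresholds are UMI counts that deep cells reach more easily, and the shares of all cells set beside them were not matched for depth. Among cells with 3 or more *Mmp3* UMIs, 23 of 48 in replicate A (47.9%, interval 33.3 to 62.8) and 23 of 58 in replicate B (39.7%, 27.0 to 53.4) were Prg4-high, against 4.77% and 4.34% of all cells. Among cells with 3 or more *Hoxa13* UMIs, 63 of 278 (22.7%, 17.9 to 28.0) and 67 of 258 (26%, 20.7 to 31.8) were. At 20 or more *Ly6a* UMIs the shares were 31.4% and 23.8%, at 3 or more *Krt19* UMIs 25.9% and 21.2%, and at 3 or more *Adcyap1* UMIs 19.8% and 20.8%. Between 31.2% and 67.8% of the cells past such a threshold, taken over these 10 genes and both replicates, held no *Prg4* UMI at all.

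Since chondrocytes made up much of the Prg4-zero class, both classes were also limited to cells with *Col2a1* at 1000 CPM or less, a limit chosen after the data were seen. This left 383 and 337 Prg4-high and 3998 and 4035 Prg4-zero cells. Of 15148 genes tested, 1463 (9.66%) were higher and 1882 (12.4%) lower. The distal and proximal patterning genes differed as before, with log2 fold changes of 1.91 for *Hoxa13*, 1.47 for *Hoxd13*, -2.66 for *Shox2* and -2.16 for *Meis2*. So did *Ly6a* (1.73), *Thbs4* (2.22), *Igfbp3* (1.46), *Prkg2* (1.89) and *Adcyap1* (1.82), and on the lower side *Ibsp* (-6.89).

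Other groups changed under this limit. *Comp*, a cartilage and tendon matrix protein, was lower over all cells (251.9 and 237.8 against 866.9 and 789.7 CPM, log2 fold change -1.74) but higher among the cells low in *Col2a1* (221.8 and 179.9 against 121.3 and 90.93 CPM, 0.95). *Acta2* and *Tagln* turned from 0.10 and 0.14 to -0.41 and -0.40, and of the 12 contractile genes 2 were higher and 8 lower. On the perichondrium list *Fbln2* was still higher, by 0.87. *Tnmd* was lower (-2.32), at 10.08 and 4.847 CPM against 40.76 and 36.62 CPM, and *Scx* was still higher, by 0.60. The limb patterning list had 7 genes higher and 10 lower, the WNT list 4 and 16 of 27 tested, the TGF-beta and BMP list 7 and 14, and the cAMP and CREB list 1 and 8 of 25 tested. *Sox9* (-0.77), *Acan* (-0.95) and *Nog* (-0.56) were lower by much less than over all cells. The chondrocyte list, on which *Col2a1* itself set the limit, had 16 of 21 genes lower and 2 higher, with a median of -0.56.

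The same comparison at Day 7, with 232 and 168 Prg4-high cells, asked whether these features were already there. Of 17327 genes, 3652 (21.1%) were higher and 3241 (18.7%) lower, 39.8% in all. Of the genes higher at Day 10, 2444 were also higher at Day 7 (84.5% of the Day 10 genes and 66.9% of the Day 7 genes), and of those lower, 2084 (72.2% and 64.3%). In opposite directions were 17 genes that were higher at Day 10 and lower at Day 7 and 29 for the reverse. *Hoxa13* had a log2 fold change of 1.73 at Day 7 and 1.89 at Day 10, *Hoxd13* 1.18 and 1.56, *Shox2* -2.34 and -2.47, and *Meis2* -1.53 and -2.07. For these 4 genes the difference between the days did not pass the test.

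That difference was called for 1314 genes, 7.58% of those tested, with 366 (2.11%) more positive and 948 (5.47%) more negative at Day 10. By DESeq2 the counts were lower, 210 and 597. The cells around the members differed too, since 55.5% and 48.0% of the Day 7 Prg4-zero cells had more than 5000 CPM of *Col2a1* against 31.5% and 30.1% at Day 10. Among cells with *Col2a1* at 1000 CPM or less, 241 and 240 genes were called. *Mmp3* was more positive at Day 10 (4.58 against 2.91), and *Igfbp3* slightly so (1.79 against 1.45). *Ly6a* was more positive at Day 7 (2.91 against 2.25), as were *Adcyap1* (2.74 against 1.93) and *Scx* (by -0.78 as Day 10 minus Day 7). *Pdgfra* and *Dcn* were less reduced at Day 10 than at Day 7, with differences of 1.12 and 1.45 on the log2 scale. Over all cells 16 of the 20 perichondrium genes and 10 of the 12 contractile genes were more positive at Day 7, and none at Day 10.

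Only some of these differences between the days were also called among cells low in *Col2a1*. The differences of *Ly6a* (-0.03, edgeR adjusted p = 0.91), *Adcyap1* (-0.44, adjusted p = 0.29) and *Scx* (-0.27, adjusted p = 0.15) did not pass the test there. Of all 15148 genes tested there, 240 were more positive at Day 7 and 241 at Day 10. On the perichondrium list 8 of 20 genes were more positive at Day 7 and 3 at Day 10, among the latter *Fbln1* (0.60). On the contractile list 6 of 12 were more positive at Day 7 and 0 at Day 10. *Mmp3* (2.68), *Igfbp3* (0.51), *Pdgfra* (1.62) and *Dcn* (1.26) were still more positive at Day 10.

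**Figure D5:**
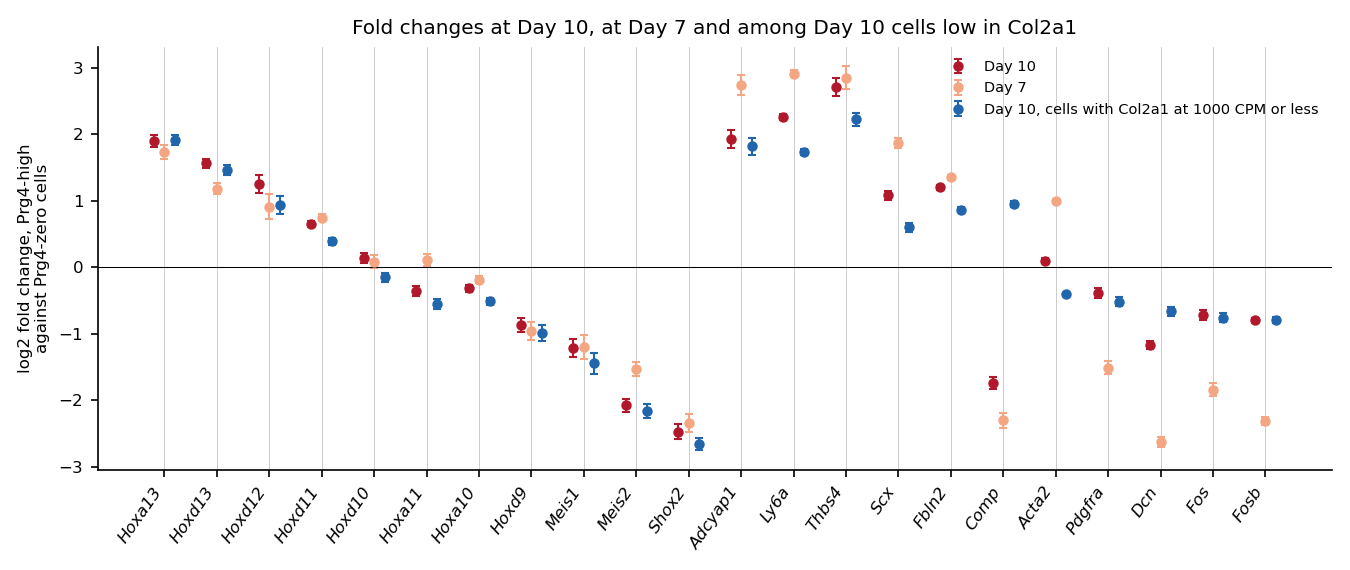
Log2 fold change of Prg4-high against Prg4-zero cells for 22 genes, with standard errors, at Day 10 (red), at Day 7 (orange) and at Day 10 among cells with *Col2a1* at 1000 CPM or less (blue). *Hoxa13* (1.89, 1.73 and 1.91) and *Shox2* (-2.47, -2.34 and -2.66) stay close in the 3 comparisons, while *Comp* and *Acta2* differ in sign between all Day 10 cells and those low in *Col2a1*.

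Prg4-high cells of Day 10 were last set against Prg4-high cells of Day 7. *Prg4* itself was at 834.2 and 935.7 CPM in Day 10 and 869.6 and 815.4 CPM in Day 7 Prg4-high cells, which the shared threshold makes a description. Of 12494 genes tested, 1530 (12.2%) were higher and 1621 (13%) lower at Day 10, 25.2% in all. The counts without Day 7 replicate A were 717 and 966, and within cells of 10000 to 40000 UMIs they were 756 and 958. *Cxcl5* was at 46.41 and 23.88 CPM at Day 10 and 3.238 and 3.937 CPM at Day 7 (log2 fold change 3.31), and *Mmp3* at 30.24 and 71.58 against 15.41 and 7.401 CPM. *Igfbp6*, a second binder of insulin-like growth factors, was at 54.64 and 58.84 CPM against 16.53 and 16.69 CPM, *Penk*, which codes for proenkephalin, at 197.0 and 147.8 CPM against 68.23 and 60.0 CPM, and *Comp* at 251.9 and 237.8 CPM against 81.07 and 118.9 CPM.

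Of the 10 largest decreases from Day 7 to Day 10, 9 were histone genes, led by *Hist1h2ap* at 98.52 and 10.45 CPM against 1255 and 994.8 CPM. The other was *Gm42418*, a gene that overlaps a ribosomal RNA repeat, at 1655 and 1588 CPM against 12080 and 11640 CPM. Decreases were also found in the Prg4-zero cells. There *Gm42418* was at 2472 and 2401 against 28140 and 29990 CPM and *Hist1h2ap* at 55.39 and 8.638 against 500.2 and 472.5 CPM, and all 9 histone genes were lower in both Day 10 libraries than in both Day 7 libraries. Of the genes higher at Day 10, *Igfbp6* was at 27.21 and 30.18 against 6.896 and 6.81 CPM in the Prg4-zero cells, *Penk* at 529.2 and 599.3 against 254.9 and 241.6 CPM and *Cxcl5* at 13.06 and 9.823 against 2 and 2.011 CPM. Each day was made of its own libraries, and day and library preparation cannot be told apart in this comparison.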

How the data were processed

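The authors aligned 10x Genomics 3′ reads to the mouse genome (GRCm38, mm10) and counted UMIs with Cell Ranger 6.1.2. The deposited matrices, 1 per library, hold these UMI counts before the filters of the authors' Seurat 4.1.0 analysis. The submitters' processing notes also name STAR. No column belonged to another series (0 columns). Here cells were filtered and classed by *Prg4* as given above, and the UMIs of a class were summed in each library. The 8 sums of Day 7 and Day 10 were fitted together in edgeR 4.0.16 (R 4.3.3, limma 3.58.1) with filterByExpr, TMM factors (0.985 to 1.01), library and the class within each day as terms, the quasi-likelihood test and Benjamini-Hochberg adjustment over all 17327 genes, a call being an adjusted p under 0.05. The common biological coefficient of variation was 0.0334, with 2 residual and 10.5 prior degrees of freedom. The 4 Prg4-high sums were compared between days in a fit of their own. *Prg4* was left out of every test. CPM use the total UMIs of a class without TMM factors. The members, the 20 lists (367 genes) and the tests were chosen with earlier results of these data known. Every gene of a list could be named, and beside these the 20 largest and 15 smallest log2 fold changes at Day 10, and the 10 and 10 of the other comparisons, among called genes at 20 CPM or more in the higher class whose replicates do not overlap. Positions of 413 of 413 genes were found by Ensembl identifier in a GRCm38 annotation. On simulated counts for the Day 10 comparison (17089 genes), 93.9% of genes changed by 0.5 on the log2 scale, 100% of those changed by 1 or 2 and 0.189% of unchanged genes were called. These counts were drawn with the spread estimated in the same fit, and only 66 or 67 genes were changed by each size. The rates therefore do not check that spread or the calls in the data. Alternatives were DESeq2 1.42.0, no TMM, no count filter, other *Prg4* thresholds, a depth window, the limits of the study, Day 10 libraries alone, a replicate block, each replicate left out and, added after the data were seen, the limit on *Col2a1*. Cells were thinned and drawn with matplotlib 3.10.9, scipy 1.17.1, pandas 2.3.3 and numpy 2.4.6 under Python 3.11.15. Tests rest on n = 2 independent cultures per day.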

Additional observations from a re-analysis of the deposited data

Results flagged for a closer look

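Of 125 genes named in the text, 52 had a log2 fold change of Prg4-high against Prg4-zero cells that differed between Day 10 and Day 7, by edgeR's quasi-likelihood test of the difference itself (n = 2 libraries a day, adjusted p under 0.05), against 7.58% of all genes. Genes named only for their results under the limit on *Col2a1* were not counted. The named genes were in part chosen from the same contrasts. In 40 the fold change was more negative at Day 10 and in 12 more positive. Differences are given as Day 10 minus Day 7 on the log2 scale.

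By more than 1, the difference was negative for 9 genes, namely *Dkk1* -3.82, *Ucma* -2.14, *Sgms2* -2.09, *Col10a1* -1.92, *Eln* -1.46, *Sp7* -1.43, *Ptn* -1.34, *Actg2* -1.31 and *Wfdc1* -1.11. *Dkk1* was the extreme case, higher in Prg4-high cells at Day 7 and lower at Day 10. *Col10a1*, *Sp7* and *Ucma* are genes of hypertrophic cartilage, bone and growth plate. Among cells with *Col2a1* at 1000 CPM or less the differences of *Col10a1* (-0.12, edgeR adjusted p = 0.92) and *Ucma* (-0.45, adjusted p = 0.83) were not called, and those of *Sp7* (-2.18, adjusted p = 0.0015) and *Dkk1* (-4.09, adjusted p = 2.8e-06) were. A difference between -1 and -0.7 was found for 15 genes, *Tagln* -0.965, *Thbs2* -0.943, *Ncmap* -0.921, *Ccn5* -0.905, *Acta2* -0.892, *Angptl2* -0.889, *Smpd3* -0.884, *Cnn1* -0.883, *Wnt16* -0.882, *Mmp23* -0.867, *Cd44* -0.81, *Adcyap1* -0.81, *Scx* -0.78, *Ltbp2* -0.764 and *Timp1* -0.759. The remaining 16 negative differences were smaller, *Ly6c1* -0.693, *Dkk3* -0.685, *Bmp4* -0.684, *Postn* -0.681, *Msx2* -0.662, *Ly6a* -0.657, *Anxa8* -0.655, *Hapln1* -0.601, *Col12a1* -0.513, *Col1a1* -0.497, *Hist1h2ap* -0.486, *Rrm2* -0.483, *Hoxa11* -0.47, *Spp1* -0.387, *Fbn2* -0.293 and *Fbn1* -0.251.

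Positive differences, where the fold change was higher at Day 10, were *Igfbp3* 0.341, *Nr4a1* 0.468, *Comp* 0.556, *Lum* 0.567, *Gm42418* 0.731, *Pdpn* 0.783, *Fos* 1.12, *Pdgfra* 1.12, *Dcn* 1.45, *Fosb* 1.51, *Epyc* 1.57 and *Mmp3* 1.67. *Pdpn* among these was called lower in Prg4-high cells at Day 7 (-0.43) and higher at Day 10 (0.36). The others include the fibroblast genes *Dcn*, *Lum* and *Pdgfra* and the early response genes *Fos*, *Fosb* and *Nr4a1*. The share of Prg4-zero cells above 5000 CPM of *Col2a1* was 55.5% and 48.0% at Day 7 and 31.5% and 30.1% at Day 10, while under the limit on *Col2a1* 241 genes of all 15148 tested were more positive and 240 more negative. Of the 52 differences, 48 had a value under that limit, and 24 were called there in the same direction, 1 (*Spp1*) in the other and 23 not at all.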

How the results depend on the processing

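Over 13 alternatives, 1568 of 1625 log2 fold changes of the same 125 named genes kept their direction and side of the threshold, and 100 genes did so in all of them. Of the others, 31 lost their call, 12 gained one, 8 values of genes without a call changed sign, of which *Thy1* was then called lower under the limit on *Col2a1* (-0.39), and 6 reversed. The reversals were *Comp* (0.95), *Acta2* (-0.41), *Tagln* (-0.40) and *Cd44* (-0.16) among cells with *Col2a1* at 1000 CPM or less, and *Cd44* (-0.047) and *Hist1h2ap* (-0.26) in the depth window of 10000 to 40000 UMIs. For the Day 10 comparison, DESeq2 called 1670 genes lower, the depth window 1697 higher, the limit on *Col2a1* 1463 higher and 1882 lower, and leaving out a replicate gave 1846 to 2905 higher and 2046 to 3051 lower. The difference between the days had 210 genes more positive and 597 more negative by DESeq2, 603 more positive with no count filter and also at 3 or more *Prg4* UMIs, 599 in the depth window, 241 and 240 under the limit on *Col2a1*, and 201 to 510 and 586 to 1040 with a replicate left out, the lowest without Day 7 replicate A. Between the Prg4-high cells of the days, DESeq2 called 694 and 754, the depth window 756 and 958, and leaving out a replicate 717 to 1488 and 966 to 1592.

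With the replicate letter as a block, the last comparison called 1604 genes higher and 1697 lower. The letters share only a number, since the difference between A and B at Day 7 had a correlation of 0.0978 with that at Day 10 over 7682 genes. The comparisons of the classes hold the library as a term. The limits of the study gave Prg4-high shares of 3.95% and 3.6% for Day 10, 1.72% and 1.37% for Day 7 and 0.109% for Day 2 replicate B. Thinning gave 0.513% in Day 2 replicate B and 2.19% in Day 7 replicate B for cells with a *Prg4* UMI, and the depth window 3.86% in Day 10 replicate A. The causes of these changes were not tested. The summed Prg4-high cells held 16635489 and 14445277 UMIs at Day 10, so that *Gdf5*, for example, rests on 9 and 11 UMIs.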

Other observations

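Prg4-high cells that also held *Adcyap1* were few at a stricter count. With 3 or more *Adcyap1* UMIs there were 24 (6.03%) and 30 (8.26%) of them in Day 10 replicates A and B, against 1.06% and 1.14% of the Prg4-zero cells. Most cells with that much *Adcyap1* were outside the Prg4-high class, and 63.6% and 58.3% of them held no *Prg4* UMI. *Clic5*, an intracellular chloride channel gene known from superficial articular cartilage, was at 1.262 and 1.869 CPM in Prg4-high cells against 0.4327 and 0.5547 CPM in Prg4-zero cells, and higher by 1.67 on the log2 scale. Hypertrophic cells, taken as those with 10 or more *Col10a1* UMIs, were 2.01% and 2.2% of the Prg4-high cells and 5.17% and 4.57% of the Prg4-zero cells.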
